A study of Mus musculus with 22 samples.

Results

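The genes of glycolysis, glycogen metabolism and lactate transport were followed across 6 cell types of the mouse brain. The set was a list of 35 gene symbols, from glucose transporters through the glycolytic enzymes to the monocarboxylate carriers, the pyruvate dehydrogenase kinases and the glycogen enzymes, and each gene was the sum of its transcripts. All 35 were found among the 55276 symbols in the files, and all 35 passed the filter on low counts that left 20498 genes for testing. The measurement was RNA sequencing of ribosome-bound mRNA: Cre recombination of a floxed Rpl22 allele puts an HA tag on a ribosomal protein, and the tagged ribosomes are precipitated with their mRNA. Every mouse was 6 weeks old and carried that allele (Rpl22 Fl/+) with a paternally inherited Cre. Rbp4-Cre gave dentate gyrus granule cells from the hippocampus and layer V neurons from the cortex, Gabra6-Cre gave granule cells from the cerebellum, and Dlx6a-Cre gave inhibitory interneurons from the hippocampus, with 2 mice pooled per library. The astrocyte line, labelled Aldh1-cre and given in the methods as an inducible Aldh1l1 driver, and Tmem119-cre/ERT2 for microglia were used on cortex and need tamoxifen. The types thus differ in driver, region or both, and what differs with cell type in a comparison cannot be told apart from it. Each cell type had 3 biological replicates, and 4 replicates had been sequenced in both of 2 batches. Their batch 1 libraries were used here, which left 18 of the 22 libraries. All interneuron and microglial libraries came from batch 2.

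Glycolysis splits glucose into pyruvate, with a net yield of ATP and NADH. Pyruvate is either burned in mitochondria, through a dehydrogenase complex that the Pdk kinases switch off, or reduced to lactate and carried across the membrane by monocarboxylate carriers. Several steps are run by alternative genes whose enzymes differ in affinity, regulation or stability, and the choice between them is a familiar mark of cell type. Glycogen, the stored form of glucose, lies in the adult brain mostly in astrocytes, and lactate passing from astrocytes to neurons has long been discussed as fuel.

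The libraries held between 38270477 and 71440915 estimated counts each. Levels are given as TPM, a transcript abundance scaled for transcript length and library size, and a mean is followed by its SD over 3 replicates. In these bulk libraries, fewer cells of a type and less RNA per cell cannot be told apart. The labels were checked against marker lists. All 10 astrocyte, 10 microglial, 4 dentate, 4 cerebellar and 7 interneuron markers were higher in every library of their own type than in any other library. Only Fezf2 among the 4 layer V markers did so: Bcl11b, Etv1 and Rbp4 were higher in dentate, cerebellar and interneuron libraries, respectively. A batch 2 library of layer V replicate 1 is labelled male but held Xist without Y-linked transcripts, and it entered only the alternative analyses. RNA of other cells was present too. Summed oligodendrocyte markers reached 3047 to 3269 TPM in interneurons, against 124.2 to 422.4 in the other neuron types and 1032 to 1259 in astrocytes. Endothelial markers summed to 354.2 to 529.2 TPM in microglia and 198.7 to 232.9 in astrocytes, against 54.09 or less in neurons. The astrocyte sum was mostly Slco1c1 (mean 153.5 TPM), with Ly6c1 at 20.24 and Cldn5 at 16.89. In microglia Ly6c1 (165.2 TPM), Cldn5 (65.18) and Flt1 (51.6) led, so the sums differ in make-up. Mural cell markers reached 236.9 to 320.2 TPM in microglia and 102.9 to 112.9 in astrocytes, and at most 24.16 in neurons. The 3 globin genes of blood summed to 5308 to 10798 TPM in astrocytes, 628.9 to 1341 in microglia and 28.08 to 113.6 in neurons. The part of blood and mural RNA in the glial differences was not tested. Astrocyte markers in the microglial and neuronal libraries lay between 1.01% and 3.53% of their astrocyte level. Single genes weighed heavily in some of these sums. Slc1a2 led in astrocytes (3299 TPM) and interneurons (37.92), but Slc4a4 led in cerebellar granule cells (76.81 TPM, Slc1a2 13.62) and S100b in layer V (108.9 TPM, Slc1a2 70.07). The percentages are therefore no exact measure of astrocyte RNA.

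Every one of the 35 genes differed among the 6 cell types (edgeR's quasi-likelihood F test over all genes, with Benjamini-Hochberg adjustment to 0.05 and a span of at least 2-fold from the lowest type to the highest). That call was met by 88.6% of the 20498 genes tested, so it says little about these genes in particular. The highest mean level fell in astrocytes for 11 genes, in cerebellar granule cells for 8, in interneurons for 7, in microglia for 6, in layer V neurons for 2 and in dentate granule cells for 1. Microglia had the lowest mean level of 15 genes. These places go by mean TPM and include near ties. Pfkm was at 547.1 ± 4.46 in cerebellar granule cells and 540.2 ± 29.8 in astrocytes, and Gbe1 at 14.82 ± 0.435 in microglia and 14.48 ± 0.908 in astrocytes. No such count was made over all genes, so the places describe this list only. Against the 4 neuron types, weighted equally, astrocytes were higher for 15 genes and lower for 3, where 28.2% of all genes tested were higher and 13.7% lower by the same rule. Microglia were higher for 8 and lower for 12, against 31.7% and 21.4% of all genes. Between the glial types, 19 genes were higher in astrocytes and 4 in microglia, against 23% and 21.1%. The median log2 fold change over the 35 genes was 0.68 for astrocytes over neurons, −0.47 for microglia over neurons and 1.27 for astrocytes over microglia, where the medians over all genes were 0.14, 0.15 and 0.04. Fold changes come from counts and compare with the geometric mean of the neuron types, so they can differ from a ratio of mean TPM.

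**Figure D1:**
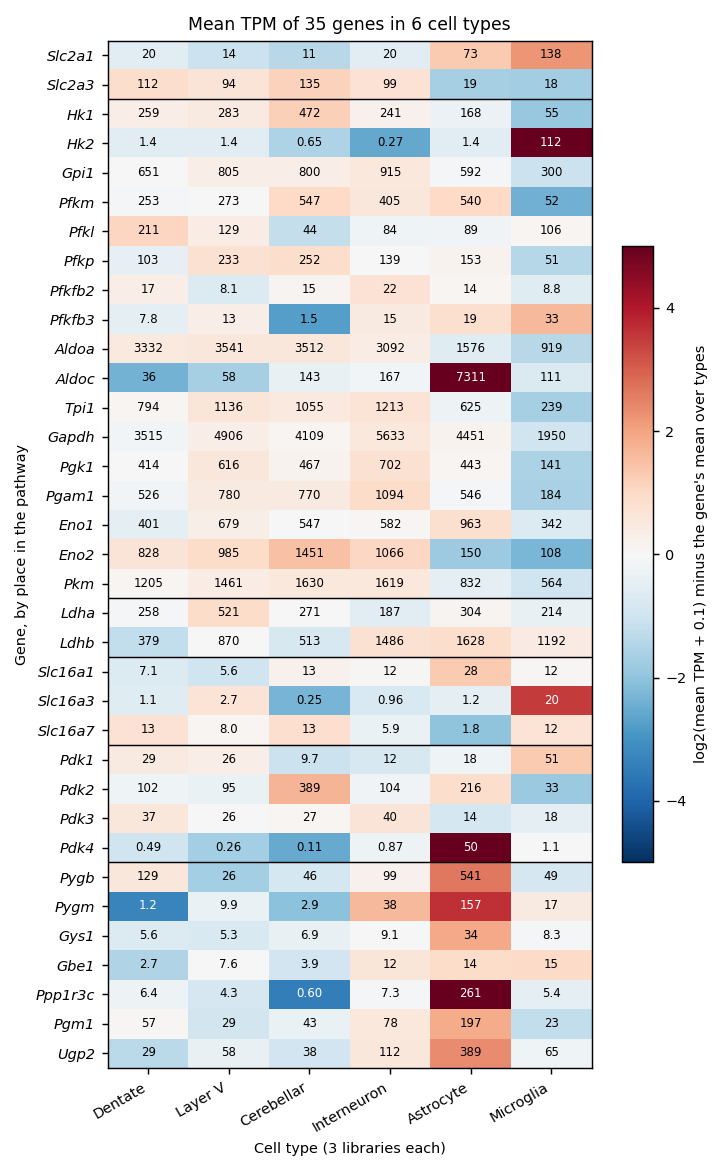
Mean level of the 35 genes in the 6 cell types, 3 libraries each. Rows are genes in the order of the pathway, the number in a cell is the mean TPM, and colour is log2(mean TPM + 0.1) minus the gene's mean over the types. Aldoc, Ppp1r3c and Pdk4 stand out in the astrocyte column and Hk2 and Slc16a3 in the microglial column.

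**Figure D2:**
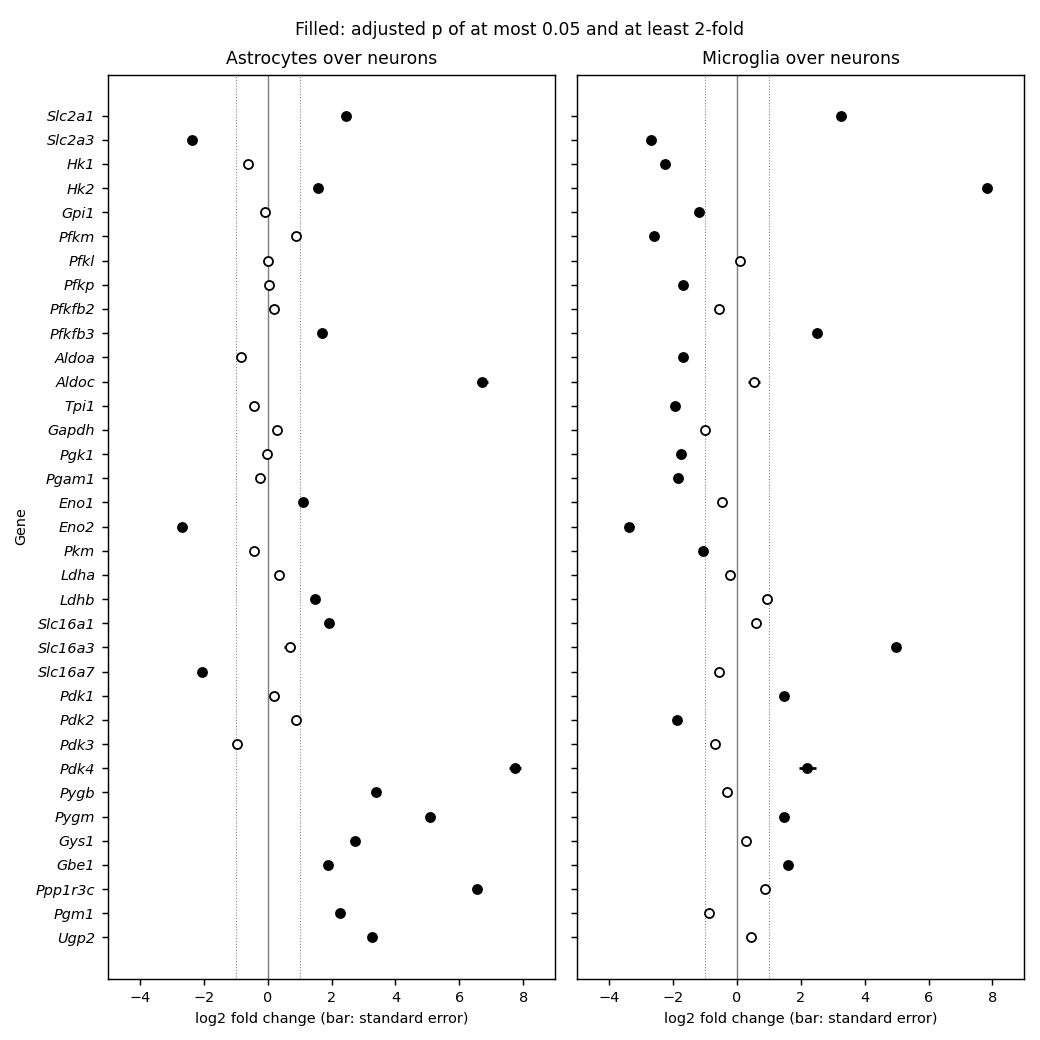
Log2 fold change of each gene in astrocytes and in microglia over the 4 neuron types, from edgeR, with standard errors as bars. Filled points were called, by the adjusted p and a change of at least 2-fold. Slc2a3 and Eno2 lie far to the left and Slc2a1 to the right for both glial types, while the glycogen genes lie to the right for astrocytes.

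Glucose entry showed opposite choices in glia and neurons. Slc2a1 (GLUT1, the transporter of astrocytes and of the endothelium of the blood-brain barrier; ENSMUSG00000028645.11, chromosome 4 from 119108711 to 119137983 in GRCm38) was at 77.51, 71.34 and 69.09 TPM in astrocytes and at 130.8, 113.6 and 171.0 TPM in microglia. In the 12 neuronal libraries it ran from 11.31 through a median of 15.07 to 25.83 TPM. Neither glial group overlapped the neurons. Log2 fold changes were 2.45 (SE 0.11, adjusted p = 1.483e-11) for astrocytes and 3.27 (SE 0.11, adjusted p = 1.971e-13) for microglia. Slc2a3 (GLUT3, the high-affinity neuronal transporter) showed the reverse, with 88.1 to 141.2 TPM in neurons, 15.31 to 21.33 in astrocytes and 16.05 to 20.02 in microglia. Its log2 fold change was −2.38 (SE 0.05) in astrocytes and −2.69 (SE 0.05) in microglia. Slc2a1 therefore made up 79.6% ± 1.98 of the pair's TPM in astrocytes and 88.4% ± 1.64 in microglia, against a neuronal mean of 13.3% (exact two-sided permutation p = 0.0022 for each, the smallest that 455 assignments of libraries allow, 0.0079 after adjustment over the 72 tests of shares). Permuting libraries ignores that replicates of a type lie close together. Endothelial and mural markers were highest in microglia and globins in astrocytes, and their part in the Slc2a1 levels was not tested.

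Hexokinase, which traps glucose as its phosphate, divided microglia from all other types. Hk1, the common brain form, was highest in cerebellar granule cells (471.5 ± 13.1 TPM) and lowest in microglia (55.21 ± 0.92), a log2 difference of −2.26 (SE 0.05, adjusted p = 8.982e-19) between microglia and neurons. Hk2, a form regulated by insulin and hypoxia in muscle and fat (ENSMUSG00000000628.10, chromosome 6 from 82725025 to 82774454), was at 116.6, 112.0 and 107.6 TPM in microglia. No other library exceeded 1.863 TPM. On the log2 scale it exceeded neurons by 7.84 (SE 0.09, adjusted p = 1.337e-21), and Hk2 made up 67.0% ± 0.601 of hexokinase TPM in microglia. In astrocytes Hk2 was at 1.628, 1.48 and 1.199 TPM, inside the neuronal range of 0.1935 to 1.863, although the fit called it higher there (log2 1.57, SE 0.12). The neuron types differed among themselves: dentate granule cells (1.439 ± 0.376 TPM) and layer V neurons (1.433 ± 0.2) were at the astrocyte level, while interneurons were at 0.2693 ± 0.102. The RefSeq promoter of Hk2 is printed with those of Slc16a3 and Ppp1r3c below the account of glycogen.

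Phosphofructokinase commits the sugar to glycolysis, and its 3 subunit genes were mixed differently in every type. Pfkm, the muscle subunit, took 69.1% ± 0.891 of the TPM in astrocytes, 64.9% ± 0.173 in cerebellar granule cells and 64.5% ± 0.306 in interneurons. It was 24.9% ± 1.5 in microglia, where Pfkl, the liver subunit, took 51.0% ± 1.39. Pfkm itself was at 51.54 ± 1.7 TPM in microglia, below all neuronal libraries (241.0 to 551.9), with a log2 fold change of −2.59 (SE 0.05, adjusted p = 1.06e-19). Pfkl was not lower there (98.03 to 113.5 TPM, within the neuronal 42.11 to 214.6), so its larger share went with lower Pfkm and Pfkp. Among neurons, Pfkl ran from 43.81 ± 2.2 TPM in cerebellar granule cells to 210.6 ± 4.92 in dentate granule cells, or from 5.2% to 37.2% of the subunits. Pfkp, the platelet subunit, was at 232.7 ± 11.7 TPM in layer V neurons and 251.9 ± 3.48 in cerebellar granule cells, and at 50.53 ± 9.74 in microglia. The shares in astrocytes did not pass the test against all neurons (adjusted exact permutation p = 0.09 for Pfkm, 0.35 for Pfkl and 0.19 for Pfkp).

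Phosphofructokinase is activated by fructose 2,6-bisphosphate, which Pfkfb enzymes make. Pfkfb3, the form with the strongest kinase activity, was at 36.12, 34.14 and 29.31 TPM in microglia and at 17.79, 17.97 and 19.99 TPM in astrocytes. Among neurons it was at 13.27 ± 1.05 in layer V, 14.57 ± 1.23 in interneurons and 7.826 ± 0.506 in dentate granule cells, but only 1.495 ± 0.142 in cerebellar granule cells. Both glial types lay above all 12 neuronal libraries (log2 1.69, SE 0.07 for astrocytes and 2.50, SE 0.07 for microglia). Pfkfb2, the heart form, varied less, between 8.129 ± 0.292 TPM in layer V and 21.84 ± 1.19 in interneurons. Pfkfb3 thus held 78.9% ± 4.05 of the pair in microglia and 9.22% ± 0.503 in cerebellar granule cells (adjusted exact permutation p = 0.012 against all neurons and against the other neurons, respectively).

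Aldolase showed the largest absolute difference of the pathway. Aldoc (ENSMUSG00000017390.15, chromosome 11 from 78322968 to 78327781), the brain form known in cerebellum as zebrin II, was at 7961, 6830 and 7142 TPM in astrocytes. The neuronal libraries ran from 24.29 through 93.88 to 181.5 TPM, and microglia were at 111.9, 109.1 and 112.5. Astrocytes exceeded neurons by a log2 fold change of 6.72 (SE 0.17, adjusted p = 5.392e-14). Aldoa, the general form, went the other way: 1630, 1573 and 1526 TPM in astrocytes and 919.1 ± 9.76 in microglia, against 3038 to 3618 in neurons. Its change fell short of 2-fold in astrocytes (log2 −0.83, SE 0.04) and passed it in microglia (log2 −1.68, SE 0.04). Aldoc made up 82.2% ± 0.876 of aldolase TPM in astrocytes, 10.8% ± 0.18 in microglia and 2.93% on average in neurons. The Aldoc level in microglia was 1.49% to 1.54% of the astrocyte mean, where summed astrocyte markers were 2.8% to 3.53% of theirs. In interneurons Aldoc was at 2.18% to 2.48% and the markers at 1.08% to 1.33%, and in dentate granule cells at 0.332% to 0.809% against 1.55% to 2.07%. The part of astrocyte RNA in these Aldoc levels was not tested.

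The steps with no alternative gene in the list (Gpi1, Tpi1, Gapdh, Pgk1 and Pgam1, which turn glucose 6-phosphate and then the trioses toward phosphoglycerate) were low in microglia. Summed together with Pkm, they reached 3378 ± 41.5 TPM there, 7489 ± 161 in astrocytes, and between 7106 ± 775 and 11176 ± 168 in the neuron types. Of the 5 genes, 4 were called lower in microglia than in neurons, where 21.4% of all genes were, from log2 −1.17 (Gpi1, SE 0.04) to −1.92 (Tpi1, SE 0.05), and Gapdh was just short of 2-fold (log2 −0.99, SE 0.05). None of the 5 was called between astrocytes and neurons, with log2 values from −0.44 (Tpi1) to 0.28 (Gapdh). All glycolytic enzymes of the list summed to 18441 ± 827 TPM in astrocytes, above the mean of every neuron type, but without Aldoc to 11131 ± 243, below the mean of each of them. With Aldoc included, the sum was 16954 ± 181 TPM in interneurons and 5234 ± 60.3 in microglia. Without Aldoc, the neuron type nearest to astrocytes was dentate granule cells, at 12495 ± 1184 TPM. These sums lack TMM scaling, the scaling between libraries used in the edgeR fit. Leaving it out on TPM shifted the median log2 of all genes by −0.17 for astrocytes over neurons. The order of these sums may therefore depend on scaling. Several of these mRNAs resemble pseudogenes: 84.1% of the 31-base words of the main Gapdh transcript and 68.3% of those of Pgk1 occur in other genes. Genes sharing at least 5% of the words numbered 167 for Gapdh and 3 for Pgk1. Together they were listed at 1.29% to 8.18% of the Gapdh level and 0.52% to 28.7% of the Pgk1 level, and such reads may have been split.

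Enolase, which makes phosphoenolpyruvate, again separated neurons from glia. Eno2 (neuron-specific enolase; ENSMUSG00000004267.16, chromosome 6 from 124760053 to 124769673) was at 748.6 to 1466 TPM in neurons with a median of 1032, at 155.6, 161.1 and 134.7 in astrocytes and at 104.7, 107.3 and 111.4 in microglia. Neither glial range reached the neurons. The log2 fold change was −2.68 (SE 0.05, adjusted p = 6.492e-20) in astrocytes and −3.37 (SE 0.05, adjusted p = 2.825e-21) in microglia. Summed neuronal markers were at 880.1 to 1161 TPM in astrocytes and 419.1 to 472.2 in microglia, against 3799 to 14547 in neurons, and their part in the glial Eno2 level was not tested. Eno1, the general form, was at 958.7, 941.3 and 990.0 TPM in astrocytes, 342.8, 341.3 and 343.5 in microglia, and 347.9 to 706.2 in neurons. It was called higher in astrocytes (log2 1.11, SE 0.05), but without astrocyte replicate 3 its log2 fold change was 0.97, short of 2-fold. Eno1 made up 86.5% ± 1.37 of the pair in astrocytes and 76.1% ± 0.548 in microglia, against 34.0% on average in neurons and 27.4% ± 0.869 in cerebellar granule cells. The near-identical Eno1b, a separate gene that shares 75.6% of the 31-base words of Eno1, was listed at 190.3 ± 1.97 to 546.6 ± 7.18 TPM. Adding it to Eno1 changed no call.

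Pyruvate kinase makes pyruvate and ATP, and Pkm yields a constitutively active M1 form or a regulated M2 form according to which of a pair of mutually exclusive exons is spliced in. The exons are shown because the transcripts that carry them were found in different proportions in neurons and glia. Both lie on the plus strand of chromosome 9 in GRCm38, at chr9:59675029-59675195 for M1 and chr9:59675568-59675734 for M2, and both are 167 bases of coding sequence. Capitals mark the 64 positions at which they differ, and the other 103 are identical.
M1 exon: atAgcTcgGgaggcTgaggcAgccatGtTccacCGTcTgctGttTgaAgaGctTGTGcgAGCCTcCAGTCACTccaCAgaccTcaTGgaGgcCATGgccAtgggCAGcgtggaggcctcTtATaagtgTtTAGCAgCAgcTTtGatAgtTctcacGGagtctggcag
M2 exon: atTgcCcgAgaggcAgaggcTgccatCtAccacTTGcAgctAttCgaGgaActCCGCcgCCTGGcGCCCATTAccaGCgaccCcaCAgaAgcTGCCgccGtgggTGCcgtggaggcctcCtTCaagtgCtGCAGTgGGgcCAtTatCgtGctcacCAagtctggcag
The M1 transcript was at 726.6 to 1091 TPM in neurons, at 177.9, 193.8 and 164.8 in astrocytes and at 116.3, 107.4 and 108.0 in microglia. The M2 transcript was at 662.7, 610.7 and 665.8 TPM in astrocytes, 430.8, 444.5 and 453.9 in microglia, and 358.9 to 595.9 in neurons. M1 was therefore lower in both glial types than in any neuronal library, while M2 lay within the neuronal range in microglia and just above it in astrocytes. M2 was 78.3% ± 2.17 of the 2 forms in astrocytes and 80.0% ± 1.12 in microglia, against 35.1% in neurons, where the 4 types lay between 32.8% ± 0.867 and 37.2% ± 0.471 (exact permutation p = 0.0022 for each glial type, adjusted p = 0.0079). Astrocytes and microglia overlapped in this share. The transcripts (2041 and 2432 bases) also differ at their ends, so the estimate does not rest on these exons alone, and the 2 forms carried at least 98.0% of Pkm TPM in every library. Total Pkm was 831.6 ± 17.7 TPM in astrocytes and 563.7 ± 7.84 in microglia, against 1090 to 1652 in neurons. Only the microglial change was past 2-fold (log2 −1.07, SE 0.04), and it lost that call with protein-coding transcripts alone (−0.99).

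**Figure D3:**
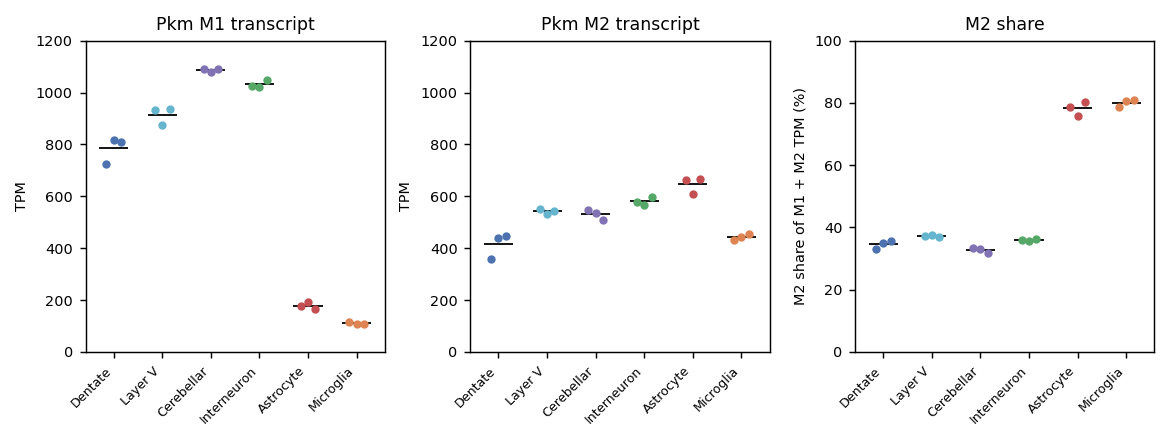
TPM of the M1 transcript (left) and the M2 transcript (middle) of Pkm, and the M2 share in percent (right). Each point is a library and each line the mean of 3. M2 lies near 80% in astrocytes and microglia and between 31.8% and 37.7% in neurons.

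Lactate dehydrogenase interconverts pyruvate and lactate, and its A subunit (Ldha) is linked with lactate production and its B subunit (Ldhb) with lactate use. Ldhb was at 1698, 1522 and 1664 TPM in astrocytes, 1487, 1439 and 1531 in interneurons and 1200, 1218 and 1159 in microglia. It was at 869.5 ± 11.4 in layer V neurons, 512.8 ± 28.4 in cerebellar and 379.4 ± 43.9 in dentate granule cells. Interneurons overlapped astrocytes and stood above the other neuron types (log2 1.26, SE 0.05, adjusted p = 6.179e-14). Ldha was highest in layer V neurons, at 531.6, 513.6 and 518.0 TPM against 181.2 to 276.0 in the other neurons (log2 1.37, SE 0.04, adjusted p = 4.267e-16), and lowest in interneurons (186.6 ± 5.44). The Ldhb share was 88.8% ± 0.595 in interneurons, 84.2% ± 1.33 in astrocytes and 84.8% ± 0.806 in microglia, and 59.5% ± 1.19 to 65.4% ± 1.82 in the other neuron types. With interneurons among the neurons, neither glial share passed the test (adjusted exact permutation p = 0.09 for each). In astrocytes Ldha was at 303.9 ± 21.6 TPM, inside the neuronal range.

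The monocarboxylate carriers were divided between astrocytes, microglia and neurons. Slc16a1 (MCT1, of intermediate affinity) led in astrocytes with 28.22, 28.81 and 28.4 TPM, above all neuronal libraries (5.37 to 13.73) and microglia (11.96 ± 1.02). The log2 fold change over neurons was 1.93 (SE 0.05, adjusted p = 2.127e-17), and its share of the 3 carriers was 90.5% ± 0.78. Slc16a3 (MCT4, a low-affinity carrier typical of lactate-exporting cells; ENSMUSG00000025161.16, chromosome 11 from 120948480 to 120960868) led in microglia with 20.32, 20.06 and 18.99 TPM. Neurons had 0.07445 to 3.234 TPM and astrocytes 1.127, 1.067 and 1.433. The log2 fold change of microglia was 4.99 (SE 0.12, adjusted p = 5.436e-18) over neurons, and astrocytes over microglia gave −4.31 (SE 0.19). Astrocytes overlapped the neurons, and their log2 difference of 0.68 (SE 0.16) was short of 2-fold. Slc16a7 (MCT2, the high-affinity neuronal carrier) was at 12.54 ± 0.948 TPM in dentate and 13.45 ± 0.666 in cerebellar granule cells, 8.024 ± 1.19 in layer V and 5.903 ± 0.363 in interneurons. It was lowest in astrocytes, at 2.116, 1.701 and 1.487 TPM (log2 −2.07, SE 0.09, adjusted p = 1.011e-13). Microglia had 12.05 ± 0.323 TPM of it, within the neuronal range of 5.576 to 14.07. Its share was 27.5% ± 0.407 in microglia, below the 47.6% of neurons (adjusted exact permutation p = 0.012), a call lost on leaving out any of the microglial libraries (0.053).

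**Figure D4:**
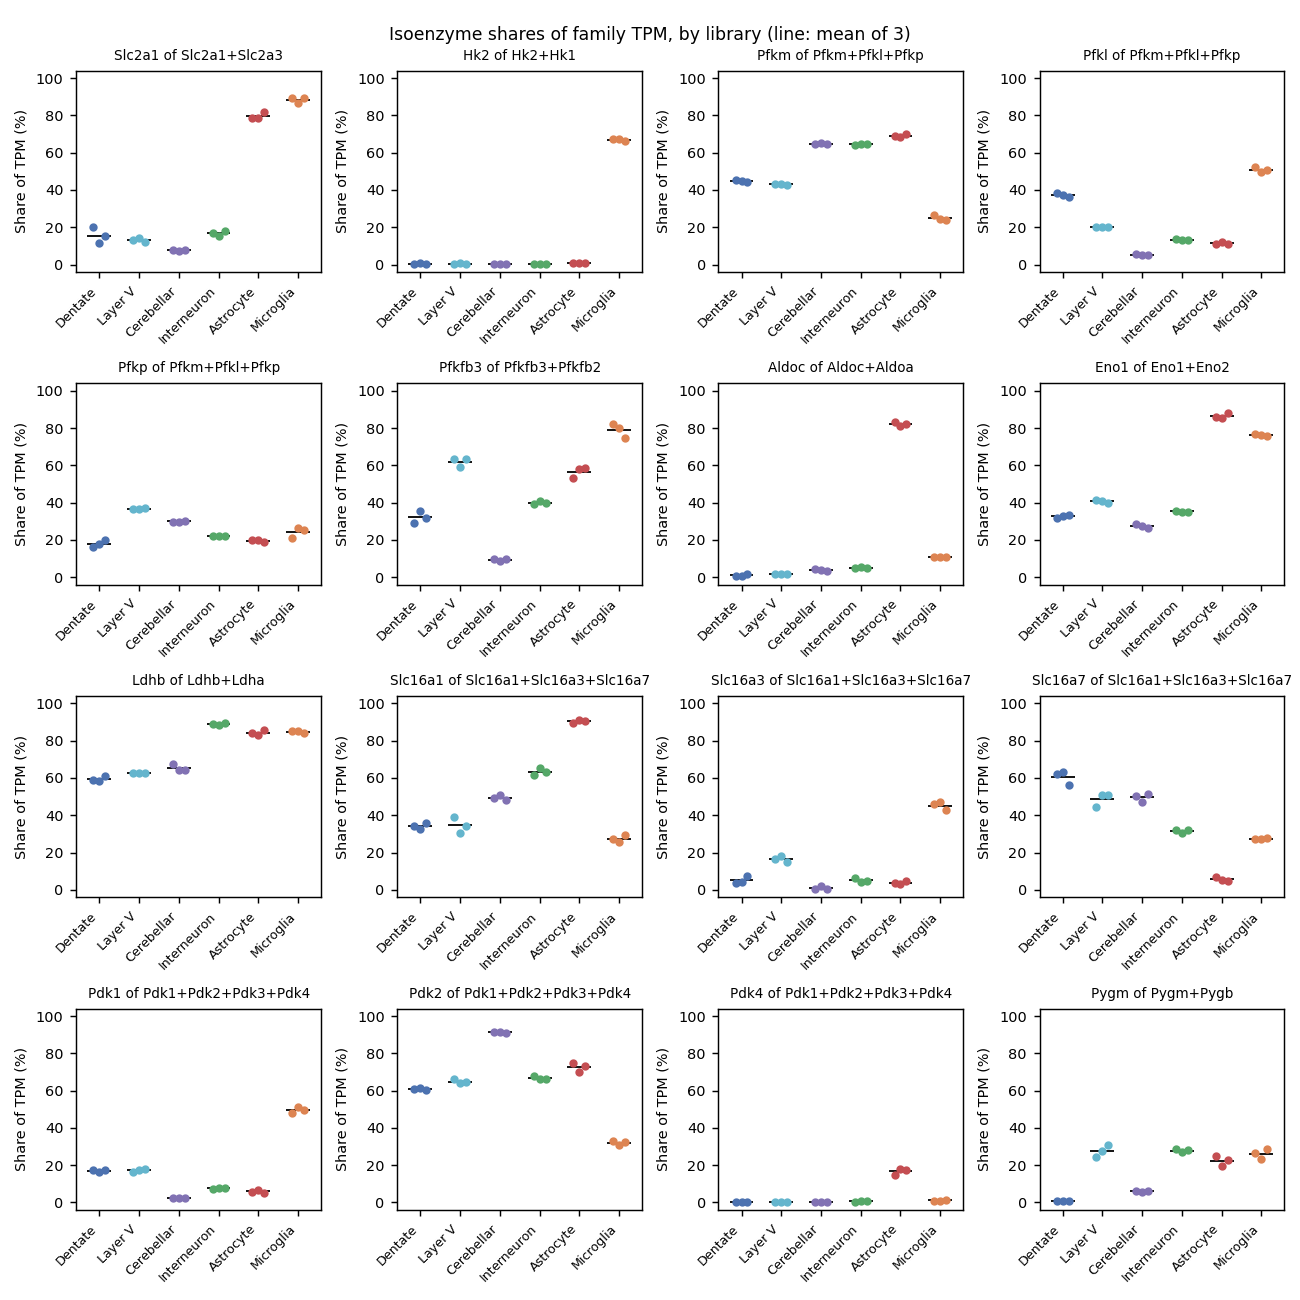
Isoenzyme share of each gene family in the 6 cell types, as percent of the family's TPM. Each point is a library and each line the mean of 3. Slc2a1 and Eno1 are high in both glial types, Aldoc and Slc16a1 in astrocytes, and Hk2, Pfkl, Slc16a3 and Pdk1 in microglia.

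The pyruvate dehydrogenase kinases, which hold back the entry of pyruvate into the citric acid cycle, were likewise divided. Pdk4, a form induced by fasting and fatty acid use in other tissues (ENSMUSG00000019577.6, chromosome 6 from 5483351 to 5496309), was at 45.09, 52.57 and 50.96 TPM in astrocytes. It did not exceed 1.487 TPM elsewhere. Its log2 fold change over neurons was 7.74 (SE 0.19, adjusted p = 3.739e-15). In microglia it was 1.65% to 3.0% of the astrocyte mean, where summed astrocyte markers were 2.8% to 3.53% of theirs, and in interneurons 0.942% to 2.25% against 1.08% to 1.33%. In the other neuron types it was below the markers' percentage. Pdk1, a target of hypoxia signalling, was at 48.77, 54.12 and 50.49 TPM in microglia, above every neuronal library (9.517 to 29.75; log2 1.49, SE 0.04), and held 49.6% ± 1.77 of kinase TPM there. Pdk2, the most widespread form, was at 394.1, 395.6 and 376.3 TPM in cerebellar granule cells. The other neurons had 90.34 to 109.0 TPM (log2 2.00, SE 0.04, adjusted p = 1.093e-18), astrocytes 216.1 ± 11.3 and microglia 33.11 ± 0.54. Cerebellar granule cells thus had 91.3% ± 0.358 of their kinase TPM in Pdk2 (adjusted exact permutation p = 0.012 against the other neurons). Pdk3 was highest in interneurons (39.73 ± 1.3 TPM) and lowest in astrocytes (13.75 ± 1.13), where its log2 fold change was −0.95 (SE 0.05).

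Astrocytes led the glycogen genes. All 7 were called higher in astrocytes than in neurons, against 28.2% of all genes tested, and no astrocyte library overlapped a neuronal one in any of them. Their summed level was 1593 ± 22.8 TPM in astrocytes, 356.3 ± 2.13 in interneurons, 231.0 ± 9.38 in dentate granule cells, 182.4 ± 2.75 in microglia, 142.0 ± 5.41 in granule cells of the cerebellum and 139.8 ± 4.75 in layer V. Ppp1r3c (a subunit that brings protein phosphatase 1 to glycogen and so favours its synthesis; ENSMUSG00000067279.3, chromosome 19 from 36731731 to 36736653) was at 259.5, 259.6 and 263.1 TPM in astrocytes. It was at 7.718 TPM or less elsewhere, and cerebellar granule cells had 0.8236, 0.4746 and 0.5122 TPM. The log2 fold change of astrocytes over neurons was 6.56 (SE 0.06, adjusted p = 1.359e-23). Gys1, glycogen synthase, was at 35.39, 31.37 and 34.0 TPM in astrocytes and between 4.857 and 10.01 in neurons (log2 2.74, SE 0.06). The transcript of Gys1 shares 7.13% of its 31-base words with Ruvbl2, an overlapping gene that was listed at 98.6% to 804% of the Gys1 level, and such reads may have been split. Pgm1 and Ugp2, which make the UDP-glucose that synthase uses, were at 196.6 ± 4.69 and 389.1 ± 37.9 TPM in astrocytes, with log2 fold changes of 2.28 (SE 0.04) and 3.28 (SE 0.06). Gbe1, the branching enzyme, was the exception to the astrocyte lead. Its level was 14.82 ± 0.435 TPM in microglia and 14.48 ± 0.908 in astrocytes, groups that overlapped, and the fit found no 2-fold difference between them (log2 0.28, SE 0.09).

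Glycogen phosphorylase, which releases glucose 1-phosphate, has a brain gene and a muscle gene in the list. Pygb was at 550.6, 513.9 and 558.5 TPM in astrocytes, 128.8 ± 3.45 in dentate granule cells, 99.47 ± 1.1 in interneurons, and 26.22 ± 1.34 to 48.66 ± 2.01 in the other 3 types (log2 3.39 over neurons, SE 0.04, adjusted p = 2.664e-22). Pygm was at 183.1, 125.0 and 162.7 TPM in astrocytes, of which replicate 2 was the lowest. Interneurons had 39.59, 37.0 and 38.68 TPM and dentate granule cells 1.344, 0.9861 and 1.164, with 9.946 ± 1.37 in layer V, 2.93 ± 0.357 in cerebellar granule cells and 17.27 ± 3.2 in microglia. The log2 fold change of astrocytes over neurons was 5.10 (SE 0.10, adjusted p = 2.708e-17). Within neurons the contrast was also wide: interneurons were above the other neurons by 3.52 (SE 0.11) and dentate granule cells below them by a log2 value of −3.35 (SE 0.17). Interneuron Pygm stood at 23.6% to 25.2% of the astrocyte mean, where summed astrocyte markers in those libraries were 1.08% to 1.33% of theirs. Dentate granule cells, with much Pygb and little Pygm, drew 0.898% ± 0.154 of phosphorylase TPM from Pygm. Layer V neurons, interneurons, microglia and astrocytes drew between 22.4% and 27.9% from it.

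**Figure D5:**
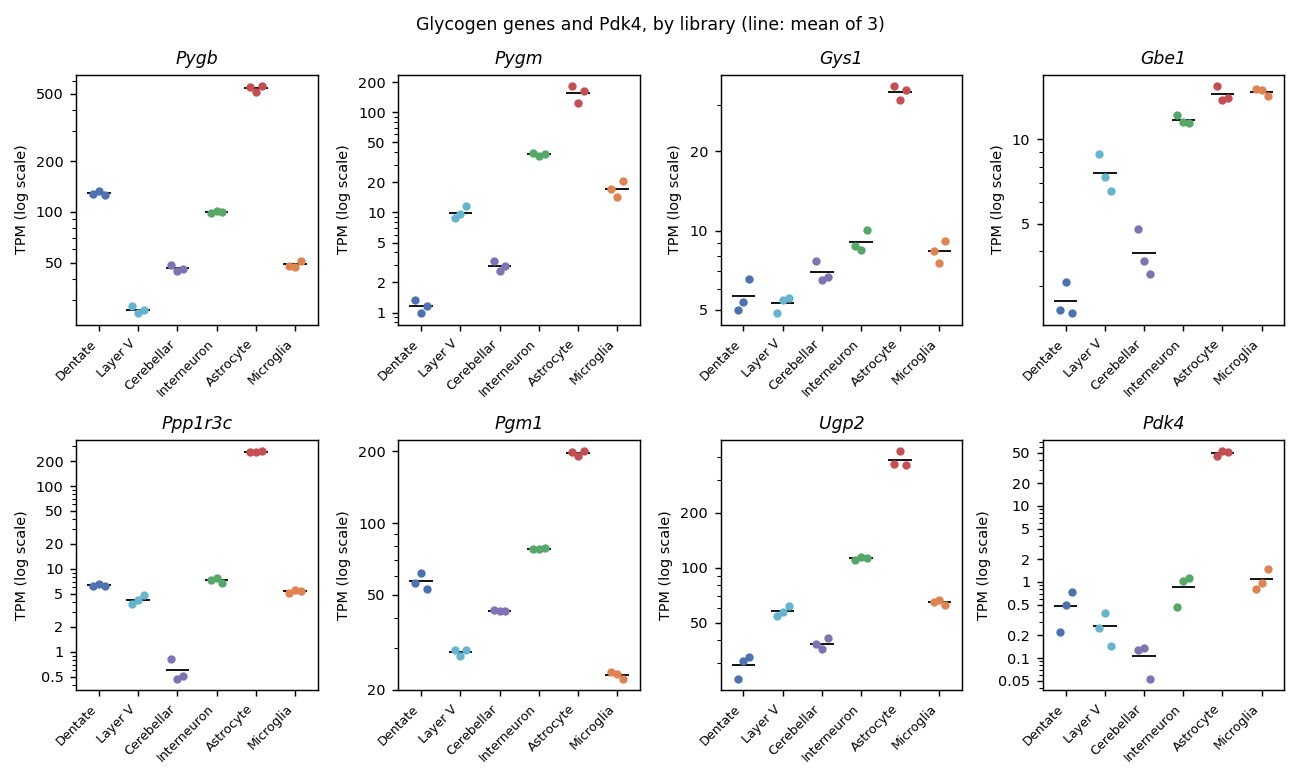
TPM of the 7 glycogen genes and Pdk4 in each library, each on its own log axis. Points are libraries and lines the mean of 3. Astrocytes are highest in every panel except Gbe1, where microglia overlap them.

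Promoters of 3 genes that were high in a single glial type, chosen after their levels were known, are given from RefSeq (GRCm38.p6) as windows of 300 bases around the start, on the strand of the gene. Hk2 and Slc16a3 were the microglial genes and Ppp1r3c the astrocyte gene. Capitals mark ACGTG or GCGTG on either strand, the core letters that hypoxia-inducible factors bind, of which ACGTG also lies in the E-box CACGTG.
Hk2, chr6:82774405-82774704, minus strand: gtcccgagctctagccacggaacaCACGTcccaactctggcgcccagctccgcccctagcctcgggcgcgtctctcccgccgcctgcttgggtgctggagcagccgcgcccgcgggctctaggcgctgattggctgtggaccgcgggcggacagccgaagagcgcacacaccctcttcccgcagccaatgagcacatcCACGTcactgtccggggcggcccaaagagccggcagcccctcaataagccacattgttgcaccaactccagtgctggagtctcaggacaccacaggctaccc
Slc16a3, chr11:120948817-120949116, plus strand: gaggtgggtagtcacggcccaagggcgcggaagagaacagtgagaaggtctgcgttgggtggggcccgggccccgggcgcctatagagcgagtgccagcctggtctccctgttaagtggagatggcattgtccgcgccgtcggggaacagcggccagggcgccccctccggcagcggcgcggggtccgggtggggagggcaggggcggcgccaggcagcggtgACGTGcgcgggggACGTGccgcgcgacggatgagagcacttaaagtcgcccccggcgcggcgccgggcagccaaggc
Ppp1r3c, chr19:36736555-36736854, minus strand: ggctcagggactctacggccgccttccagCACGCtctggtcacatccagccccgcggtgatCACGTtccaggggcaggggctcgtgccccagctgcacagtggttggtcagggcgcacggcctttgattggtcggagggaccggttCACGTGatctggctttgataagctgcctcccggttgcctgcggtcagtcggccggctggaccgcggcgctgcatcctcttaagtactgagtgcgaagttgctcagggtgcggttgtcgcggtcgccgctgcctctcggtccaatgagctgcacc
Hk2 and Slc16a3 each held 2 ACGTG matches, and Ppp1r3c held 3 ACGTG matches and 1 GCGTG match. The E-box CACGTG is counted on both strands. At least 1 such match was found in 76.0% of the 50 windows of 33 of the 35 genes, against 43.8% of all 32851 windows and 73.1% of the 9221 windows with at least as many CG pairs as the median of 19 in these genes. Taken singly, ACGTG was in 52.0% of the windows, against 19.6% of all and 28.9% of the CG-rich ones. The share with GCGTG was 54.0%, against 32.4% and 62.8%. CACGTG, which contains ACGTG on both strands, was in 14.0% of the windows, against 7.15% of all and 11.6% of the CG-rich ones. The CG-rich windows had a median of 28 CG pairs, so they were not matched to the windows of these genes. Some windows of the same gene also overlapped each other. A match is a description of these letters only.

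The 4 neuron types were then compared with each other, each against the mean of the other 3. Dentate granule cells were higher for 4 genes and lower for 5, where 17% and 8.59% of all genes tested were. Pygb (log2 1.33, SE 0.05) and Pfkl (1.33, SE 0.04) were among the higher genes and did not overlap the other neurons. Aldoc (−1.77, SE 0.23), Ldhb (−1.26, SE 0.06), Gbe1 (−1.29, SE 0.09), Ugp2 (−1.15, SE 0.07) and Pygm were the lower ones. Within batch 1, where no interneurons were present, Ldhb was at −0.99 and Ugp2 at −0.86, short of 2-fold. In Aldoc, dentate replicate 3 had 59.13 TPM and the others 24.47 and 24.29, so that replicate overlapped layer V. The other 2 higher genes overlapped neurons of another type: Hk2 (1.30, SE 0.15), which was at only 1.146 to 1.863 TPM and at 0.60 on the log2 scale within batch 1, and Ppp1r3c (1.19, SE 0.09). The median log2 fold change over the 35 genes was −0.38.

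Layer V neurons were higher for 6 genes and lower for 1, against 17.3% and 9.17% of all genes. Of all genes called there, 65.4% were higher, and 53.5% when TPM totals replaced TMM scaling, a setting that shifted the median of all genes by −0.17. Ldha and Slc16a3 were the higher genes without overlap. Slc16a3 had 2.475, 3.234 and 2.469 TPM in layer V, against 0.07445 to 1.547 in other neurons (log2 2.78, SE 0.16). Pygb was the lower gene (26.22 ± 1.34 TPM, log2 −1.42, SE 0.05). The calls of Hk2 (1.10, SE 0.15), Pdk1 (1.10, SE 0.04), Pygm (1.11, SE 0.12) and Pfkfb3 (1.59, SE 0.08) concerned levels that overlapped other neuron types. That of Hk2 was lost without layer V replicate 2 (0.91) and within batch 1 (0.4). That of Pdk1 was lost with counts taken from TPM (0.97) and within batch 1 (0.9). Pygm fell short of 2-fold with batch as a term (0.97) and was at 0.79 within batch 2.

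Cerebellar granule cells were higher for 2 genes and lower for 7, against 14.5% and 29% of all genes. Pdk2 was the higher gene without overlap, whereas Aldoc (142.8 ± 16.3 TPM, log2 1.06, SE 0.19) overlapped the interneurons. The lower genes included Pfkfb3 (log2 −2.94, SE 0.10), Ppp1r3c (−3.25, SE 0.12), Slc16a3 (−3.04, SE 0.25), Pfkl (−1.56, SE 0.05), Pdk1 (−1.18, SE 0.05) and Pdk4 (−2.47, SE 0.56). The last did not exceed 1.115 TPM in any neuronal library. The seventh, Pygm, overlapped dentate granule cells (−1.28, SE 0.15) and was at −0.07 within batch 1, where no interneurons were present. Their means were also the highest of all types in Hk1, Pfkm, Pfkp, Eno2, Pkm, Slc2a3 and Slc16a7, and against other neurons none of these passed 2-fold (log2 0.19 for Pkm and 0.40 to 0.85 for the rest). Of these genes, Pfkm overlapped astrocytes, Pkm overlapped interneurons and Slc16a7 overlapped dentate granule cells.

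Interneurons were higher for 8 genes and lower for 2, against 17.9% and 6.62% of all genes. Those higher without overlap were Pygm, Ldhb, Ugp2 (112.4 ± 2.19 TPM, log2 1.29, SE 0.06), Gbe1 (11.72 ± 0.468 TPM, 1.28, SE 0.07), Ppp1r3c (7.298 ± 0.435 TPM, 1.35, SE 0.09) and Aldoc (167.4 ± 12.3 TPM, 1.20, SE 0.19). With Pygm, 4 of the 7 glycogen genes were thus higher in interneurons than in other neurons. Within batch 2, which held all interneuron libraries, the log2 value of Aldoc was 0.94, short of 2-fold. Slc16a7 was lower (−1.29, SE 0.09), and so was Hk2 (−2.21, SE 0.20). The interneuron libraries also held the most oligodendrocyte marker RNA among neurons, and its part in these differences was not tested.

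Genes of the same pathways outside the 35 were counted from fixed lists. Of 34 other glycolytic and hexose transport genes, 27 were tested: 13 were higher and 5 lower in astrocytes than in neurons, and 10 higher and 7 lower in microglia. Of all genes tested, 28.2% were higher and 13.7% lower in astrocytes, and 31.7% and 21.4% in microglia. Slc2a5 (GLUT5, a fructose carrier known from microglia) was at 139 ± 3.37 TPM in microglia and at most 0.89 in every other library (log2 10.04, SE 0.11). Hk3 was at 57.9 ± 2.32 TPM in microglia and at most 0.596 elsewhere (log2 10.28, SE 0.14). Pgam2, the muscle phosphoglycerate mutase, was at 57.1 ± 15.2 TPM in dentate granule cells and at most 0.146 in cerebellar granule cells.

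Of 24 other glycogen genes, 23 were tested, with 10 higher and 3 lower in astrocytes and 8 higher and 8 lower in microglia, beside the same background of 28.2% and 13.7% in astrocytes and 31.7% and 21.4% in microglia. Another phosphatase-targeting subunit, Ppp1r3g, was at 59.3 ± 3.74 TPM in astrocytes and 1.51 ± 0.199 in microglia (log2 8.52 over neurons, SE 0.12). A further member, Ppp1r3b, was at 24.4 ± 1.34 TPM in microglia and at most 0.608 elsewhere (log2 7.90, SE 0.12). Each of these subunits was thus high in a single glial type. Pygl, the liver phosphorylase, was at 16.5 ± 0.178 TPM in microglia and 9.18 ± 0.509 in astrocytes.

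Of 21 genes for pyruvate entry and for partners of the carriers, all tested, 7 were higher and 4 lower in astrocytes than in neurons, and 7 higher and 10 lower in microglia. The background was again 28.2% higher and 13.7% lower for astrocytes and 31.7% and 21.4% for microglia. Emb (embigin, a chaperone that MCT2 uses) was at 31.5 ± 0.676 TPM in cerebellar granule cells, 5.79 ± 2.5 in astrocytes and 2.74 ± 0.461 in microglia (log2 −1.48, SE 0.17 and −2.76, SE 0.19 against neurons). The lesser carriers Slc16a4 and Slc16a9 were highest in microglia, at 3.39 ± 0.466 and 3.13 ± 0.487 TPM.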

How the data were processed

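Ribosome-bound mRNA from 6 cell types was sequenced in 22 libraries. Per the labels and methods, adapters were removed with cutadapt 3.5 and kallisto 0.46.2 pseudoaligned the reads to GENCODE M24 transcripts (GRCm38). The deposited files give estimated counts and TPM for 142552 transcripts per library. The strand setting of kallisto was not given in the sources used here.

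Here, the transcripts of a gene symbol were summed and estimated counts rounded to whole numbers. edgeR 4.0.16 (TMM scaling, filterByExpr, robust quasi-likelihood F test; R 4.3.3) was fitted to all genes of 18 libraries, with a call at a Benjamini-Hochberg adjusted p of at most 0.05 and at least 2-fold. On simulated counts for 19459 genes, 91 of 98 tested genes with a 4-fold change and 77 of 92 with a 2-fold change were recovered between astrocytes and neurons by adjusted p alone, and 0 unchanged genes passed both thresholds. Isoenzyme shares are percentages of a family's TPM, and 18 shares in 4 comparisons gave 72 exact two-sided permutation tests, adjusted together (numpy 2.4.6). Between astrocytes and microglia such a test cannot go below 0.1. The edgeR p-values measure the spread between replicates of a type. The permutation tests move single libraries between groups, so against neurons their p-values also reflect the spread between the pooled neuron types.

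The members and lists were chosen with earlier results of these data known. The text names all 35 genes, near-identical genes that share reads, and the 3 genes of each other list with the largest spread of mean log2(TPM + 0.1). Gene positions, the Pkm exons and shared 31-base words came from GENCODE M21 (GRCm38.p6), whose identifiers matched, and promoters from RefSeq. DESeq2 1.42.0, other filters and scalings, single batches and left-out libraries were alternatives. Library totals in place of TMM, on counts and on TPM, were chosen after seeing the data.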

Additional observations from a re-analysis of the deposited data

How the results depend on the processing

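No called value reversed in any setting. Of 96 called fold changes of the 35 genes, 96 kept their call with DESeq2, without the filter on low counts and with batch 2 libraries in place of batch 1, 95 with protein-coding transcripts alone and 95 with batch as a term. In the scaling alternatives, which were chosen after seeing the data, 93 kept it with library totals in place of TMM and 90 with TPM and library totals. The latter gave 5 genes lower in astrocytes than in neurons, 2 lower in layer V and 1 lower in interneurons. Library totals gave 1 gene higher in cerebellar granule cells. Within batch 1, which lacks interneurons and microglia, cerebellar granule cells were higher for 4 genes and had 14 shares called, and within batch 2 they were higher for 1. Within batch 2, 0 microglial shares were called by the exact permutation test, where the lowest adjusted p was 0.071 because fewer libraries remained. Of the 30 called shares, these 13 lost the call, 12 in the other comparisons moved by more than the SD between replicates, and 5 did not. All 30 kept their direction.

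Leaving out each library in turn gave 14 to 15 genes higher and 3 to 4 lower in astrocytes, 8 higher and 12 to 13 lower in microglia, and 19 and 4 between the glial types. It gave 4 and 5 to 6 in dentate granule cells, 5 to 6 and 1 in layer V, 2 and 7 in cerebellar granule cells, and 8 and 2 to 3 in interneurons. All 35 differed among the 6 types each time. Shares called numbered 9 in astrocytes, 12 to 13 in microglia and 7 to 9 in cerebellar granule cells. There, Pfkl lost its call on leaving out any single cerebellar replicate (adjusted exact permutation p = 0.14) or dentate replicate (0.058), and Pkm M2 on leaving out any single cerebellar replicate (0.084 to 0.12). Same-numbered libraries did not deviate together (median r 0.028 over 45 pairs, against −0.017 over 90 others), so the numbers do not pair them, and a fit with the replicate block kept 96 of the 96 calls.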

Other observations

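The pentose phosphate pathway, which branches from glucose 6-phosphate and supplies NADPH, was led by microglia. Of 9 listed genes, 8 were tested, and 6 were higher in microglia than in neurons with 0 lower, against a background of 31.7% higher among all genes. In astrocytes 3 were higher and 0 lower, where 28.2% and 13.7% of all genes were. Pgd was at 97 ± 3.13 TPM in microglia and 21.6 ± 0.63 to 50 ± 1.02 in neuron types (edgeR log2 1.90, SE 0.05). H6pd, the form of the endoplasmic reticulum, was at 13.9 ± 0.234 TPM in microglia and 7.1 ± 0.0265 in cerebellar granule cells, and at most 3.02 in the other types. G6pdx, the first enzyme of the pathway, also had its highest mean in microglia, but its libraries there overlapped those of astrocytes. It was at 57.8 ± 2.25 TPM in microglia, 54.8 ± 1.57 in astrocytes, 42.8 ± 0.992 in cerebellar granule cells and 41.3 ± 0.456 in interneurons, but at 12.5 ± 2.46 in dentate granule cells and 12.3 ± 0.68 in layer V neurons.

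Of 19 listed regulators of these pathways, 6 were higher and 1 lower in astrocytes than in neurons, and 7 higher and 4 lower in microglia, against 28.2% and 13.7% of all genes in astrocytes and 31.7% and 21.4% in microglia. Mlxipl (ChREBP, a glucose-responsive transcription factor) was at 40.7 ± 1.35 TPM in microglia and at most 1.99 elsewhere (log2 8.64, SE 0.19). Myc was at 37.9 ± 3.28 TPM in microglia, 4.76 ± 0.348 in astrocytes and 0.139 ± 0.0627 in cerebellar granule cells. Egln3, a prolyl hydroxylase that acts on hypoxia-inducible factors, was at 22.6 ± 0.734 TPM in interneurons, 13 ± 0.292 in layer V neurons and 0.0968 ± 0.0357 in cerebellar granule cells.

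The retrogene Pgk1-rs7, which shares 68.2% of the 31-base words of Pgk1, differed between sequencings of the same replicate. Cerebellar replicate 3 had 108.7 TPM in batch 1 and 6.664 in batch 2, and astrocyte replicate 2 had 6.587 in batch 1 and 74.98 in batch 2. Pgk1 itself was at 457.3 and 464.5 TPM in the former pair and at 447.3 and 448.3 in the latter.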
